A study of Homo sapiens with 24 samples.

Results

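SW480 KO17 and SW480 KO21 are 2 clones of 1 human colorectal carcinoma cell line in which the same gene, CTNNB1, had been inactivated. They were compared with each other, gene by gene and along the chromosomes, to show how far 2 knock-out clones of 1 line differ. The members were the 4 RNA libraries labelled SW480 KO17 and SW480 KO21, rounds A and B, out of 24 libraries in the series, which also holds WT and KO clones of other colorectal carcinoma lines. Biallelic deletion of exon 7 with CRISPR/Cas9 shifted the reading frame and gave a premature stop codon in both KO clones. The 4 libraries of WT4 and WT5, clones of the same line with an intact CTNNB1 locus that had been carried through the same cloning procedure, were set beside them. All 8 libraries came from cells grown in the same medium with no drug named in the labels, and SW480 carries an inactivating APC mutation that all 4 clones share. Each clone was grown from a single sorted cell, so KO17 and KO21 are 1 clone each, and the p-values below measure the spread between rounds of a clone and not the spread between clones of a genotype. The study describes the rounds as independent biological replicates. In bulk RNA, fewer cells with a transcript and less transcript per cell cannot be told apart.

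CTNNB1 encodes β-CATENIN, which links classical cadherins to the actin cytoskeleton at adherens junctions and, in the nucleus, binds TCF/LEF factors to switch on WNT target genes. Loss of APC stabilises β-CATENIN, and most colorectal carcinomas therefore keep this pathway switched on. Cancer cell lines also carry rearranged chromosomes, and the RNA levels of many genes follow the number of copies of the segment on which they lie. DNA was not measured here.

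The 8 SW480 libraries held between 25857212 and 28437413 reads assigned to genes, and those of the 2 KO clones between 27421896 and 28437413. The values are normalised read counts, that is, reads per gene divided by a size factor of the library. Epithelial keratins marked all 4 KO libraries, with KRT8 between 86907 and 98886 normalised counts and KRT18 between 57838 and 65283. Of 12 markers of colorectal epithelium, CDX1, LGALS4 and KRT20 had at most 3 reads in each KO library, so these defining intestinal markers were absent or nearly so. They were also at most 3.915 normalised counts in each WT library. CEACAM5, CDH17 and VIL1 reached at most 15.05 in the KO libraries. EPCAM (645.1 to 970.7), CDX2 (52.67 to 165.3) and CDH1 (28.8 to 55.5) were present in all 4 KO libraries. Of 36 markers of other cell types, 19 had at most 3 reads in every KO library, among them CD3E, COL3A1, DCN and ALB, and the summed level of the 36 ranged from 1354 to 1409 in KO17 and from 1481 to 1497 in KO21.

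The CTNNB1 transcript (chr3:41236232-41301587, GRCh37, as all gene positions below) was far below WT in both KO clones, and slightly lower in KO17 than in KO21. It measured 839 and 840.4 normalised counts in KO17 A and B and 1106 and 1312 in KO21 A and B, against 43114 to 50939 in the 4 WT libraries. The KO clones did not overlap, with a log2 difference (KO17 minus KO21) of -0.52 ± 0.08 (SE, n = 2 libraries per clone) and an adjusted p of 0.000128 in limma with Benjamini-Hochberg adjustment over all tested genes. AXIN2, which encodes a negative feedback regulator of the WNT pathway, measured 357 and 356 in KO17, 455 and 591 in KO21 and 11049 to 12213 in WT. LEF1, a TCF/LEF factor and itself a WNT target, measured 262 and 230.3 in KO17, 408 and 396 in KO21 and 3322 to 3959 in WT. Both were lower in KO17, by -0.54 and -0.71 on the log2 scale, with adjusted p of 0.000782 and 0.000115. TCF7, another TCF/LEF factor, was higher in KO17, at 1322 and 1375 against 838 and 852 in KO21, a log2 difference of 0.67. BMP4, which encodes a secreted BMP ligand, measured 1513 and 1291 in KO17, 3028 and 2582 in KO21 and 7053 to 8590 in WT, so that KO21 lay between KO17 and WT. MYC, RNF43, TCF7L1 and TCF7L2 did not pass the test between the clones, with log2 differences from -0.25 to -0.06. ASCL2 and TERT were not tested, having 0 reads in both KO17 libraries and 1 to 3 reads in each KO21 library.

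Across the transcriptome KO17 and KO21 differed at 819 of 16390 tested genes, 5.00%, at an adjusted p under 0.05 and an absolute log2 difference over 1. Of these, 338 were higher in KO17 (2.06% of tested genes) and 481 higher in KO21 (2.93%), and the median difference over all tested genes was -0.0262. The level filter was reached by 249 tested genes in both KO17 libraries and neither KO21 library, and by 222 the other way round, so that their direction was fixed by the filter. Of the 819 called genes, 218 had a value under 10 in both libraries of 1 clone. The 2 WT clones, compared in the same fit, differed at 325 genes (1.98%). KO17 differed from the WT clones at 2903 genes (17.7%) and KO21 at 3182 (19.4%), 2 comparisons that share the 4 WT libraries. Without library A of KO17 the number of genes higher in KO17 fell to 223, and with a value of at least 10 required in every KO library 201 were higher in KO17 and 332 in KO21.

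The 819 genes took several positions relative to WT. Of the 338 higher in KO17, 91 had KO17 within 1 log2 unit of the WT mean and KO21 outside that range, and 78 had KO21 within 1 unit and KO17 outside. Both clones lay within 1 unit of WT at 75 genes, both lay beyond it on the same side at 80, and on opposite sides at 14. Of the 481 higher in KO21, KO17 alone was within 1 unit of WT at 135 and KO21 alone at 100, while both were beyond WT on the same side at 161, both within at 66, and on opposite sides at 19. WT4 and WT5 themselves differed at 36 of the 338 and at 60 of the 481.

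The 12 genes most strongly higher in KO17 are given in 2 groups that overlap. In the first, the gene was present in WT and in KO17 and lower than both in KO21. AFF2 and GABRQ of this group were also above WT in KO17. GABRA3, which encodes a subunit of the GABA-A receptor (chrX:151334706-151619787), measured 468 and 585 in KO17, 0 and 0.96 in KO21, and 417 to 902 in WT. The 2 KO17 libraries held 1136 reads against 1 in the 2 KO21 libraries, a ratio of 1110 (95% exact interval 200 to 44100, counting error only). AFF2, a nuclear protein gene also near the end of the long arm of X (chrX:147582137-148082193), measured 142 and 137 in KO17, 0.934 and 0.96 in KO21, and 66.6 to 106 in WT, a read ratio of 147 (40.4 to 1220). CD4, the T helper cell co-receptor gene (chr12:6896024-6929965), measured 387 and 331 in KO17, 18.7 and 5.76 in KO21, and 142 to 503 in WT. GABRQ, another GABA-A receptor subunit gene on X, measured 266 and 233 in KO17, 26.2 and 44.2 in KO21 and 113 to 206 in WT. SYT1, which encodes the calcium sensor of synaptic vesicles, measured 187 and 224 in KO17, 0 and 8.64 in KO21 and 1067 to 1402 in WT. The SYT1 difference of 6.05 had an adjusted p of 0.0206, which went to 0.0943 and 0.0969 when library A or B of KO17 was left out.

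In the second group the gene was higher in KO17 than in WT as well. DCT, COL4A5 and CTTNBP2 of this group were also below WT in KO21. HBE1 and OR51B5 are placed in this paragraph without their WT values. PDE2A, which encodes a phosphodiesterase that breaks down cyclic nucleotides (chr11:72287185-72385635), measured 1500 and 1477 in KO17, 40.2 and 49.9 in KO21, and 8.81 to 167 in WT, with WT4 above WT5. FGF13, an intracellular FGF homologue that binds sodium channels (chrX:137696888-138304939), measured 908 and 901 in KO17, 112 and 96 in KO21 and 45 to 116 in WT. The KO17 values stood apart from all 6 other libraries for both genes. DCT, which encodes an enzyme of melanin synthesis (chr13:95089065-95131936), measured 192 and 196 in KO17, 0.934 and 2.88 in KO21 and 23 to 35.4 in WT, so that the WT clones lay between the KO clones. COL4A5, a chain of basement membrane collagen, measured 203 and 182 in KO17, 6.54 and 0 in KO21 and 12 to 21.2 in WT. CTTNBP2, a cortactin-binding protein gene, measured 113 and 103 in KO17 and 3.74 and 7.68 in KO21, with WT4 at 16.2 and 23.9 and WT5 at 71.4 and 67.5. HBE1, the embryonic globin gene, and OR51B5, an olfactory receptor gene, measured 237 and 266, and 124 and 144, in KO17, and 36.4 and 22.1, and 17.7 and 3.84, in KO21. Their annotated spans overlap on the same strand of chromosome 11, so reads could not be told apart between them. Adjusted p over these 12 genes ran from 2.74e-11 for GABRA3 to 0.0206 for SYT1. GABRA3, AFF2, SYT1, DCT, COL4A5 and CTTNBP2 reached the level filter through KO17 alone, which fixed their direction.

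The 12 genes most strongly higher in KO21 are given in a similar way, with the clones exchanged. Present in WT and lowest in KO17 were DSG2, SOX4 and KCNK1. DSG2, which encodes a desmosomal cadherin (chr18:29078140-29128971), measured 12.2 and 11.9 in KO17, 358 and 333 in KO21 and 765 to 1065 in WT, a KO17 minus KO21 difference of -4.73 ± 0.13. SOX4, an HMG-box transcription factor gene counted among the WNT targets (chr6:21593982-21598850), measured 64.9 and 69.7 in KO17, 609 and 592 in KO21 and 2131 to 2638 in WT, a difference of -3.14 ± 0.11. The 3 groups did not overlap for either gene, and in both KO21 lay between KO17 and WT. KCNK1, a potassium channel gene, measured 30.1 and 16.5 in KO17, 262 and 219.8 in KO21 and 124 to 176 in WT.

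Highest in KO21 were CLEC11A, SH3BGRL, TUSC3 and INMT. KO17 also lay above all WT libraries for SH3BGRL, INMT and, at a low level, TUSC3. MYBPC2 is placed in this paragraph without its WT values. CLEC11A, which encodes a secreted growth factor with a lectin domain (chr19:51226621-51228965), measured 167 and 172 in KO17, 2919 and 2785 in KO21 and 168 to 189 in WT. KO17 sat in or just beside the WT range there, while KO21 was higher than KO17 by 4.07 on the log2 scale (KO17 minus KO21 -4.07 ± 0.12, adjusted p 1.26e-12). SH3BGRL, which encodes a small protein of the thioredoxin fold (chrX:80457601-80554046), measured 31 and 47.7 in KO17, 789 and 757 in KO21 and 1.93 to 9.1 in WT. TUSC3, a subunit gene of the oligosaccharyltransferase complex (chr8:15274724-15624158), measured 4.7 and 4.59 in KO17, 398 and 354 in KO21 and 0 to 2.94 in WT. INMT, an N-methyltransferase gene on chromosome 7, measured 80 and 120.2 in KO17 and 1141 and 992 in KO21, against 25.3 to 51.5 in WT. MYBPC2, which encodes a myosin-binding protein of fast muscle, measured 11.3 and 14.7 in KO17 and 163 and 98.9 in KO21. SMIM22, a small membrane protein gene, and ETV1, an ETS transcription factor gene, completed the 12 together with G0S2 and HSD11B1. SMIM22 measured 5.64 and 6.42 in KO17, 221 and 191 in KO21 and 50.5 to 106 in WT. ETV1 measured 165 and 164 in KO17 and 1802 and 1598 in KO21, with WT4 at 136 and 159 and WT5 at 671 and 529. TUSC3 and SMIM22 reached the level filter through KO21 alone, which fixed their direction.

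**Figure D1:**
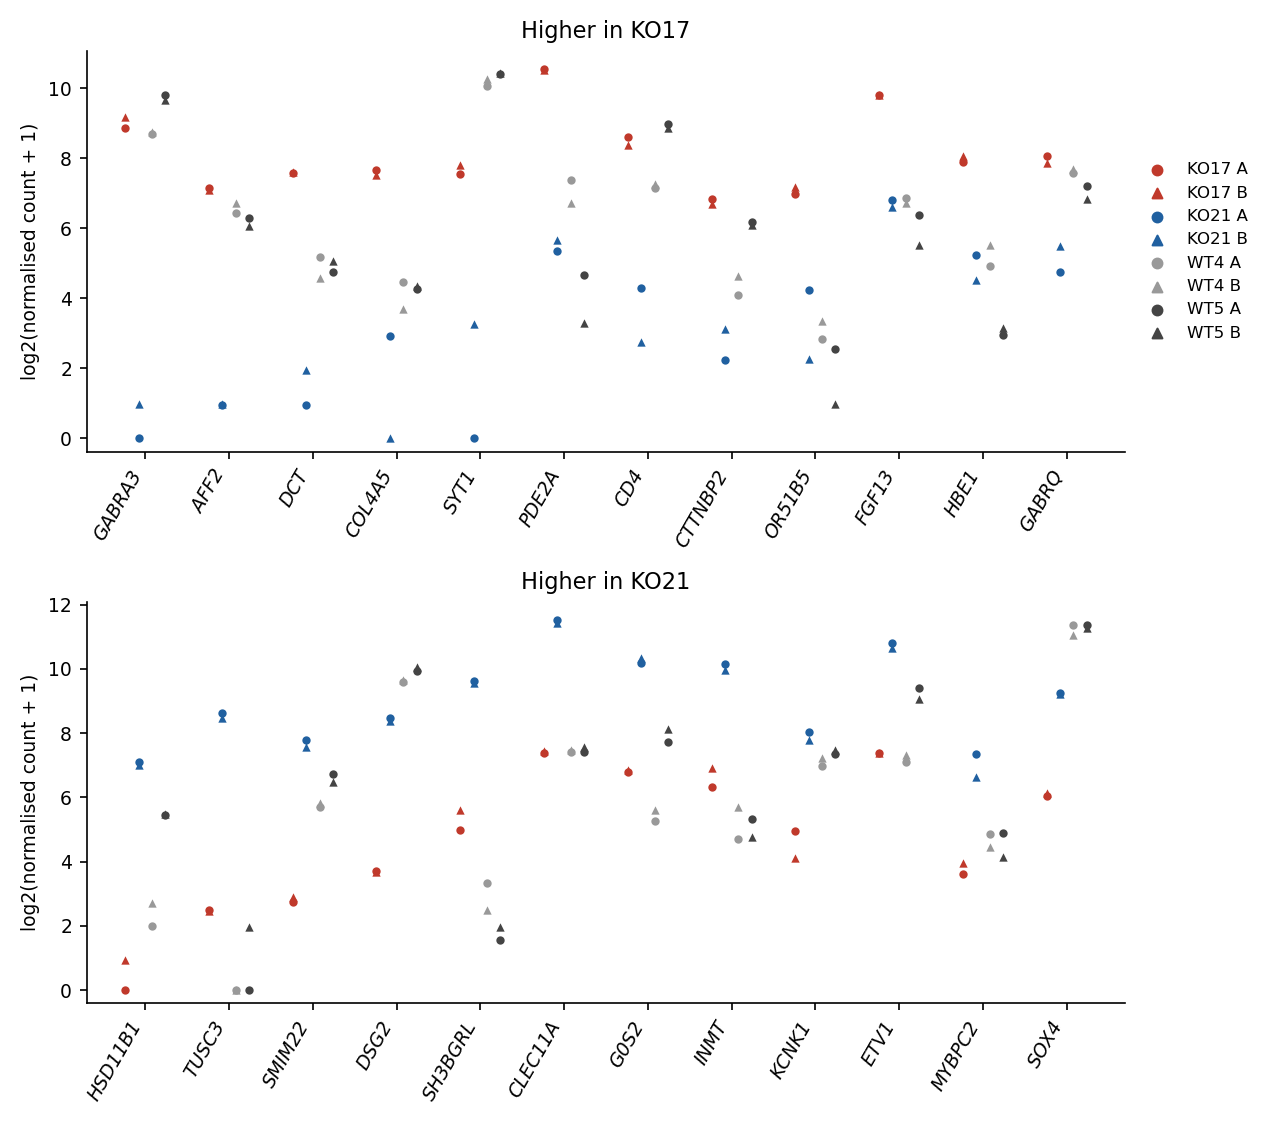
Normalised counts on a log2(value + 1) scale (vertical axis) of the 12 genes most strongly higher in KO17 (upper panel) and in KO21 (lower panel), with 1 point per library, circles for round A and triangles for round B. Genes were picked among those whose KO17 (red) and KO21 (blue) points do not overlap, which holds for 66% of all tested genes. The grey WT points lie with KO17 (GABRA3, CLEC11A), with KO21 (FGF13) or between or beyond them (DCT, SOX4).

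Differences between the clones also came in runs of neighbouring genes. Along the chromosomes there were 9 runs of at least 3 neighbouring tested genes called in the same direction, 3 higher in KO17 and 6 higher in KO21, with 33 genes in all. One of them, on chromosome 1 from 209788215 to 209908294, held LAMB3, HSD11B1-AS1, G0S2 and HSD11B1. HSD11B1, which encodes the enzyme that regenerates cortisol, measured 0 and 0.918 in KO17, 135 and 127 in KO21, 3.03 and 5.51 in WT4 and 42.5 and 44 in WT5. The read ratio of KO21 over KO17 was 282 (95% exact interval 50.3 to 11200, with 277 reads against 1). HSD11B1 and HSD11B1-AS1 reached the level filter through KO21 alone, which fixed their direction. G0S2, an inhibitor of fat breakdown, measured 109 and 115 in KO17, 1153 and 1288 in KO21, 37.4 and 47.8 in WT4 and 211 and 281 in WT5. LAMB3, a laminin chain of epithelial basement membranes, measured 1158 and 1101 in KO17, 7864 and 10149 in KO21, 268 and 254 in WT4 and 736 and 908 in WT5. KO21 was the highest clone and WT5 was above WT4 at all 3 genes, whereas KO17 was above both WT clones for LAMB3, between them for G0S2 and below both for HSD11B1. HSD11B1-AS1 is annotated on the opposite strand across G0S2 and HSD11B1, and with a kit that does not keep strand its reads (10.3 and 17.3 normalised counts in KO21) could not be told apart from theirs.

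The starts of these genes differ in base composition, and 5 promoters are printed so that the neighbours and CLEC11A and PDE2A, each far higher in 1 KO clone, can be read side by side. Each runs from 250 bases before to 50 bases after the RefSeq gene start (GRCh38.p14), 5′ to 3′ on the gene's strand, in lower case with CpG dinucleotides in capitals:
LAMB3, chr1:209652376-209652675, minus strand: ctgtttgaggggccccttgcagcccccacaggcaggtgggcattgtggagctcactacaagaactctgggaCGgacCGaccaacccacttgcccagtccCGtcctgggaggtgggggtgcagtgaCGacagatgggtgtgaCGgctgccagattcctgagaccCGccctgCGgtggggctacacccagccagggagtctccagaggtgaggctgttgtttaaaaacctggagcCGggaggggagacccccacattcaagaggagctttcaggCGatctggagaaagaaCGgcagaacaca
G0S2, chr1:209675162-209675461, plus strand: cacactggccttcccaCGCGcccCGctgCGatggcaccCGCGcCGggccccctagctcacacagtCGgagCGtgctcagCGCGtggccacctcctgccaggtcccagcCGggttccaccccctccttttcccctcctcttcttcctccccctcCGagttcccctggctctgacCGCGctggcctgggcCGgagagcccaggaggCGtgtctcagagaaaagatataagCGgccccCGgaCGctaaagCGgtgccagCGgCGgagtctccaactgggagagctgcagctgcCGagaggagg
HSD11B1, chr1:209685929-209686228, plus strand: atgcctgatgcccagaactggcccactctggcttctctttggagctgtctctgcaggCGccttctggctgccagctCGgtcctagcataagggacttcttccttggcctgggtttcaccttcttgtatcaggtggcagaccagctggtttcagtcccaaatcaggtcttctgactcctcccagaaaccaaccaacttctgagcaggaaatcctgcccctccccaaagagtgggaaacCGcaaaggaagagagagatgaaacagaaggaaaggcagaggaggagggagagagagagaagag
CLEC11A, chr19:50723114-50723413, plus strand: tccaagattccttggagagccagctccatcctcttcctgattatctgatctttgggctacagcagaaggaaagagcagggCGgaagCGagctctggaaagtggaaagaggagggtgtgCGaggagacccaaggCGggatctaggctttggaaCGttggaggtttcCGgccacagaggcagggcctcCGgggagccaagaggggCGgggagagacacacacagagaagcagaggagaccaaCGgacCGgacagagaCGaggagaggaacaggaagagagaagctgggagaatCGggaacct
PDE2A, chr11:72674373-72674672, minus strand: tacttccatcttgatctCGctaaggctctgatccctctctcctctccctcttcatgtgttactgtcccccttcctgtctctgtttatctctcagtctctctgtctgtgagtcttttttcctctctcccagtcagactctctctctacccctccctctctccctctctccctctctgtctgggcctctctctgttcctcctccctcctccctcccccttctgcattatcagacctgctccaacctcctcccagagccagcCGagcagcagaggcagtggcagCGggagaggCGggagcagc
G0S2 held 24 CpG in its 300 bases, CLEC11A 12, LAMB3 10, PDE2A 4 and HSD11B1 3, so the 3 neighbours that moved together were not alike in CpG content. Over the 11341 tested genes with a promoter in the table the median was 26 CpG, against 19 for 190 genes higher in KO17 and 18 for 308 genes higher in KO21. The TCF/LEF core motif, searched on both strands as the word CTTTGAA and in its variants ending differently, which were CTTTGAT, then also CTTTGTA, and lastly the word CTTTGTT, was in none of the 5 printed promoters. It was in 13.2% of the promoters of genes higher in KO17, 12.7% of those higher in KO21, 8.5% of those of tested genes and 13.9% of all 27305 promoters.

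HOX genes, which encode homeobox factors that set position along the body axis, differed as a cluster. Of 33 tested HOX genes, 7 were called higher in KO21 and 1, HOXD13, higher in KO17, 24.2% against 5.00% of all tested genes, and the median difference was -0.39. The HOXA cluster held 6 of the 7, HOXA5, HOXA6, HOXA7, HOXA9, HOXA10 and HOXA11, with a median over 11 tested HOXA genes of -1.05, beside medians of -0.47 for HOXB, -0.21 for HOXC and -0.19 for HOXD. HOXA9 measured 647 and 678 in KO17, 1950 and 1737 in KO21 and 1322 to 1649 in WT, and HOXA10 measured 291 and 279.8 in KO17, 727 and 724 in KO21 and 476 to 590 in WT. For both genes all 4 WT libraries lay between the KO clones. HOXA5, at 203 and 215 in KO17 and 522 and 493 in KO21, and HOXA11, at 285 and 249 in KO17 and 630 and 581 in KO21, had the same order, with WT at 272 to 306 and at 399 to 413. The antisense RNAs HOXA10-AS and HOXA11-AS belonged to the same run, from 27180671 to 27228917 on chromosome 7, and strand was not kept. At one end of the cluster HOXA13 passed the test below the fold threshold (-0.78, adjusted p 0.00916).

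**Figure D2:**
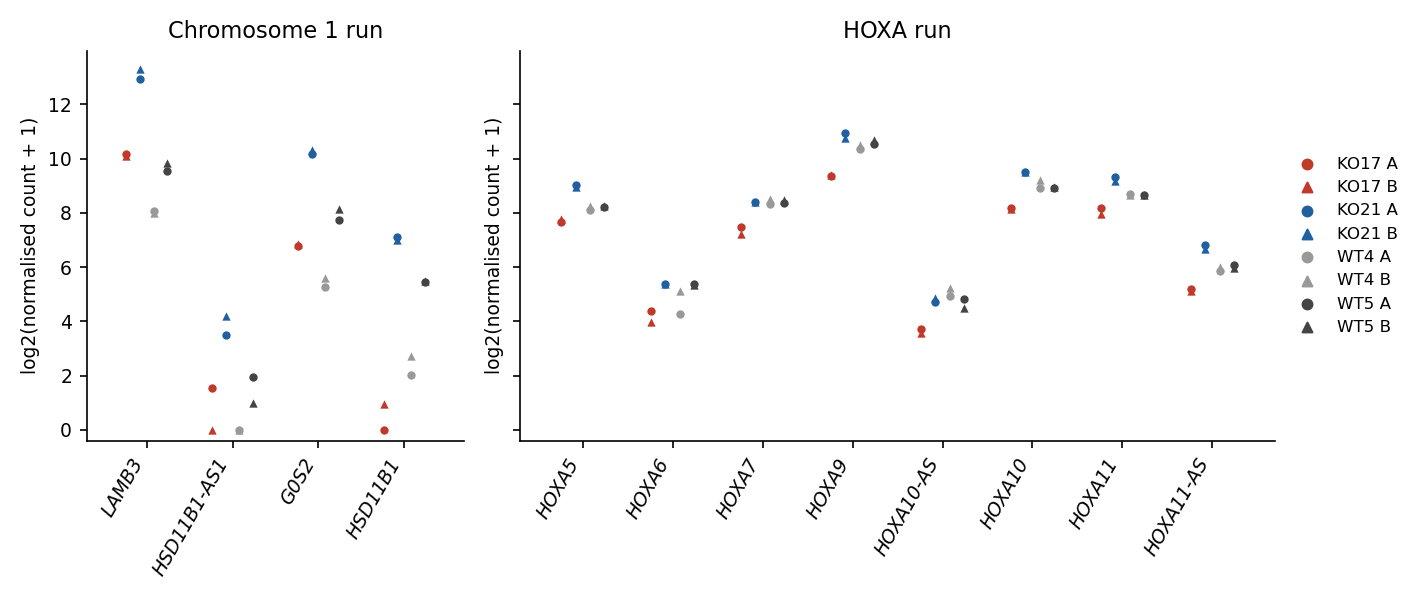
Normalised counts on a log2(value + 1) scale (vertical axis) of 2 runs of neighbouring genes called higher in KO21, the LAMB3 to HSD11B1 run on chromosome 1 (left) and the HOXA5 to HOXA11-AS run on chromosome 7 (right), with 1 point per library. The definition of these runs fixed that KO21 (blue) is above KO17 (red) at every gene. In the HOXA run the difference was between -1.56 and -1.05 on the log2 scale throughout.

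Shifts of whole chromosomes were sought with the median, over genes with a mean of at least 100, of each gene's log2 level relative to its mean in the 8 libraries. Of 23 chromosomes tested with 11432 genes, 2 were called (8.70%), chromosome 20 and chromosome 13, and the others shifted by -0.06 to 0.05 between the clones. In 10 Mb bins, 18 of 280 were called (6.43%), of which 8 lay on chromosome 13, 4 on chromosome 20 and 6 elsewhere. Those elsewhere numbered 10 without library B of KO17, 12 without library B of KO21, and 1 with bins of 20 Mb, whereas all tested bins of chromosome 13 were called each time. At the level of single genes, 13.3% of the 300 tested genes on chromosome 13 and 6.36% of 456 on chromosome 20 were called, against 2.89% to 8.43% on the other chromosomes.

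**Figure D3:**
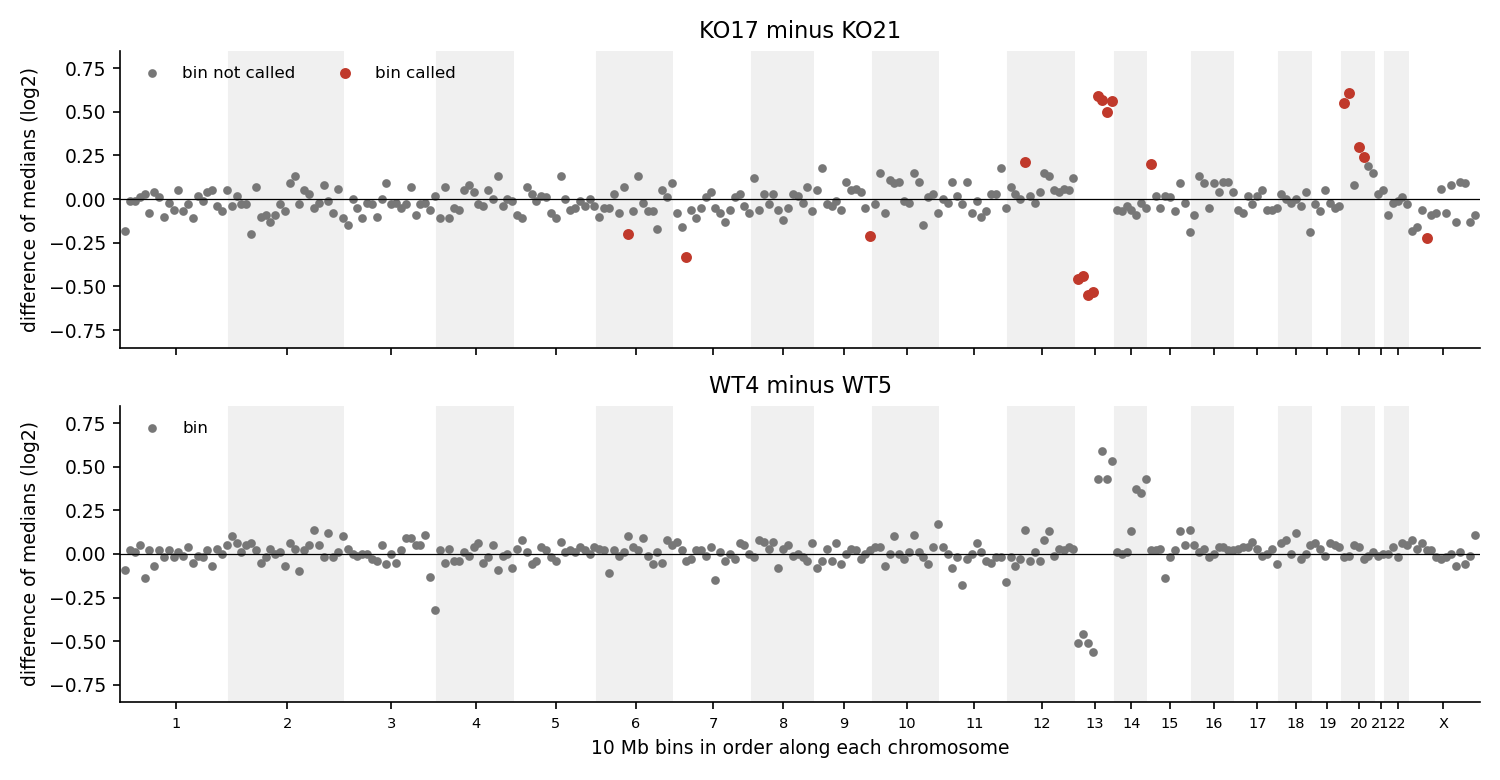
Difference of medians on the log2 scale (vertical axis) for each of 280 bins of 10 Mb, in order along chromosomes 1 to 22 and X, for KO17 minus KO21 (upper panel, called bins in red) and WT4 minus WT5 (lower panel, calls not marked). The red bins stand out on chromosome 13, in both directions, and on chromosome 20, and the WT pair shows the same chromosome 13 pattern without the chromosome 20 shift, together with 3 chromosome 14 bins between 0.35 and 0.43 and 1 bin of -0.32 at the end of chromosome 3.

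Chromosome 13 was split into 2 blocks that differed in opposite directions. All 8 tested bins were called, the 4 from 20 to 60 Mb lower in KO17 by 0.44 to 0.55 on the log2 scale and the 4 from 70 Mb on higher in KO17 by 0.50 to 0.59. The split that best separated the 207 genes fell between TDRD3 (ending at 61148012) and HNRNPA3P5 (starting at 66362064), a stretch that no other gene above the level filter starts in. Before it 135 genes had a median of -0.55 and only 10 were higher in KO17, and after it 72 genes had a median of 0.53 and 67 were higher in KO17. Rounds A and B, taken alone, gave the same split, with medians of -0.55 and 0.56 in A and -0.54 and 0.47 in B.

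The WT clones carried the same pattern, WT4 with KO17 and WT5 with KO21. Medians before the split were -0.23 and -0.22 in KO17, -0.30 and -0.27 in WT4, 0.27 and 0.27 in KO21 and 0.20 and 0.31 in WT5. After the split they were 0.28 and 0.27 in KO17, 0.26 and 0.23 in WT4, -0.24 and -0.26 in KO21 and -0.22 and -0.28 in WT5. KO17 and WT4 thus lay on one side and KO21 and WT5 on the other in both blocks, with no overlap between the pairs. WT4 minus WT5, which shares no library with KO17 minus KO21, was best split at the same place, between TDRD3 and HNRNPA3P5, with medians of -0.51 and 0.46. The 2 differences had the same sign at 188 of 207 genes (90.8%), with a Pearson r of 0.76 across genes, while across the 11225 genes of the other chromosomes r was 0.074. The genes are not independent points, and each difference rests on 4 libraries. Within the pairs, KO17 minus WT4 had medians of only -0.05 and 0.09 on both sides of its best split, and KO21 minus WT5 of -0.10 and 0.06.

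Single genes of the first block with the highest levels were TPT1, RPL21 and HMGB1. TPT1, which encodes the translationally controlled tumour protein (chr13:45907606-45915419), measured 20677 and 22958 in KO17, 44306 and 42320 in KO21, 20912 and 21436 in WT4 and 29927 and 31367 in WT5. RPL21, a ribosomal protein gene, measured 12952 and 14090 in KO17, 23490 and 23811 in KO21, 16218 and 16728 in WT4 and 20549 and 22321 in WT5. In both genes KO17 and WT4 were below KO21 and WT5. HMGB1, a chromatin protein gene, was lower in KO17 by 0.36. RGCC, a regulator of the cell cycle (chr13:42031686-42045007), went well beyond the block, at 229.5 and 289 in KO17, 1817 and 1566 in KO21 and 1477 to 1968 in WT. GJB2, which encodes a gap junction connexin, measured 584 and 622 in KO17, 2213 and 2209 in KO21, 98 and 87.3 in WT4 and 377 and 445 in WT5. CDX2, the intestinal homeobox factor gene (chr13:28535055-28543452), lies in the same block and measured 52.7 and 65.1 in KO17, 165 and 142 in KO21, 881 and 857 in WT4 and 1333 and 1315 in WT5.

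In the second block IPO5, an importin gene, measured 10706 and 10618 in KO17, 5556 and 6128 in KO21, 12492 and 12686 in WT4 and 8251 and 8375 in WT5. TFDP1, the dimer partner of E2F factors, measured 8513 and 8755 in KO17, 4870 and 5597 in KO21, 9343 and 8935 in WT4 and 6341 and 6345 in WT5. Here KO17 and WT4 were the higher clones at both genes. DIS3 and RBM26, which encode RNA-processing proteins, and KLF5, a transcription factor gene, were higher in KO17 by 0.53, 0.74 and 0.49. ATP11A, a lipid flippase gene, and BORA, which encodes an activator of the mitotic kinase Aurora A, were called higher in KO17 (1.18 and 1.32), as was the drug transporter gene ABCC4, at 1732 and 1615 in KO17 and 762 and 852 in KO21, whose difference of 1.05 was 0.97 without library A of KO21. DCT, described above, lies in this block too.

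Chromosome 20 was lower in KO21 than in the 3 other clones. Its median level was 0.10 and 0.09 in KO17, -0.22 and -0.20 in KO21, 0.09 and 0.07 in WT4 and 0.07 and 0.08 in WT5. The KO21 libraries stood apart from the 6 others, and KO17 minus KO21 was 0.31 (SE 0.019, adjusted p 1.31e-27, limma with the spread pooled over chromosomes), a ratio of 1.24, with 80.3% of 330 genes higher in KO17 against 47.4% of genes overall. The shift was uneven along the chromosome. The first 20 Mb differed by 0.55 and 0.61 in its 2 bins, the bins from 30 to 50 Mb by 0.30 and 0.24, and the last 2 bins by 0.19 and 0.15, under the threshold of 0.2, while the bin from 20 to 30 Mb differed by 0.08 (adjusted p 0.193). The best split fell between DTD1 (ending at 18747288) and RIN2 (starting at 19738250) in both rounds, with 74 of 80 genes higher in KO17 before it (median 0.52) and 191 of 250 after it (median 0.21). Before the split, library medians were -0.48 and -0.44 in KO21 and 0.13 to 0.19 in the 6 others.

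PRNP, the prion protein gene in the first 20 Mb (chr20:4666996-4682236), measured 30979 and 34455 in KO17, 15218 and 15879 in KO21 and 5633 to 6715 in WT, so it was above WT in both KO clones. Its difference of 1.07 was 0.99 without library B of KO17. RASSF2, a RAS-association domain gene, measured 160 and 133 in KO17, 53.2 and 48 in KO21 and 108 to 144 in WT. ANKEF1 and SLC4A11, a membrane transporter gene, were called higher in KO17 as well, by 1.26 and 1.22. Not every gene there followed the block, since FKBP1A (0.10, adjusted p 0.35) and DSTN (-0.06, adjusted p 0.539) did not pass the test at levels of 13753 to 17848. Farther along, GNAS, which encodes the stimulatory G protein subunit, measured 36952 and 37570 in KO17 and 29901 and 27520 in KO21. MMP9, a secreted gelatinase, ran against the block, at 157 and 113 in KO17, 703 and 444 in KO21 and 5.87 to 13.8 in WT.

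**Figure D4:**
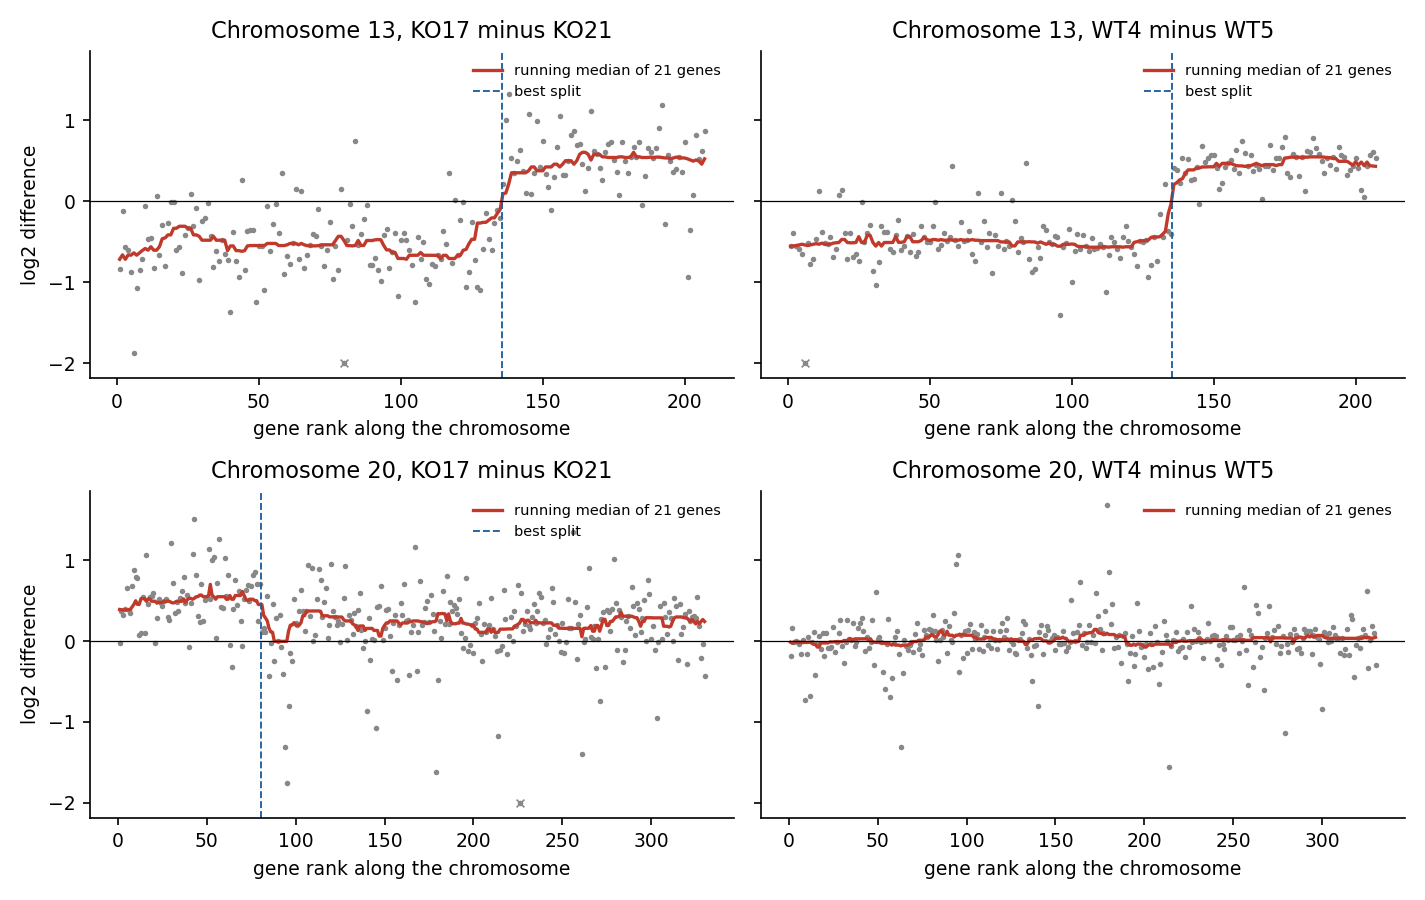
Log2 difference (vertical axis) of each gene with a mean of at least 100 against its rank along chromosome 13 (upper panels, 207 genes) and chromosome 20 (lower panels, 330 genes), for KO17 minus KO21 (left) and WT4 minus WT5 (right). The red line is a running median of 21 genes, the dashed line the best split, and crosses are genes drawn at the limit of 2. On chromosome 13 both panels step from about -0.5 to about 0.5 after gene 135, and on chromosome 20 the left panel alone is shifted, most strongly over its first 80 genes.

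Of the 6 called bins on other chromosomes, the one on chromosome 7 from 20 to 30 Mb had the greatest difference (-0.33). It contains the HOXA cluster and ITGB8, and 7 of its 41 genes were called, where 5.00% of all tested genes were. The highest-level genes of that bin moved little, HNRNPA2B1 by 0.21 and CBX3 by -0.11, and NFE2L3 was lower in KO17 by 0.42. The other 5 bins, on chromosomes 6, 9, 12, 15 and X, held 10 to 22 genes and differed by 0.20 to 0.22 in either direction, close to the threshold of 0.2.

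Mitosis and G2/M genes, which encode the cyclins, kinases and spindle proteins of cell division, were shifted together towards KO17. Their median difference was 0.57, against -0.0262 over all genes, 45 of 47 had a difference above 0, and 32 were higher in KO17 at an adjusted p under 0.05 where 13.0% of all tested genes were. None of the 47 was higher in KO21 at that level, where 15.5% of all tested genes were, and only MKI67 passed the fold threshold as well. MKI67, which encodes the proliferation marker Ki-67, measured 14107 and 14626 in KO17, 5117 and 6996 in KO21 and 14104 to 17350 in WT. FOXM1, the transcription factor of G2/M genes, measured 5962 and 6457 in KO17, 3192 and 3338 in KO21 and 5678 to 6248 in WT. TPX2, a spindle assembly factor gene, measured 17525 and 21944 in KO17, 9648 and 11442 in KO21 and 15196 to 20069 in WT. Relative to the shared WT libraries the list had a median of -0.63 in KO21 and -0.07 in KO17, beside 0.047 and 0.0261 over all tested genes. The rounds of a clone also differed, since the summed level of the list was 282908 and 337712 in KO17 A and B and 183239 and 223650 in KO21 A and B. Without library A of KO21 the number at an adjusted p under 0.05 was 19 and the median 0.412. Of the 47 genes 5 lie on chromosome 20, with differences of 0.90 (AURKA), 0.53 (CDC25B), 0.63 (UBE2C), 0.90 (TPX2) and 0.77 (MYBL2), and the part of the chromosome shifts in these values was not tested.

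DNA replication and G1/S genes had a median of 0.13 over 52 genes. None was called, where 5.00% of all tested genes were. At an adjusted p under 0.05, 18 of the 52 were higher in KO17 and 3 higher in KO21, where 13.0% and 15.5% of all tested genes were. In the senescence and secretory phenotype list the median was -0.24 and 3 of 41 genes were called, 7.32% against 5.00% of all tested genes, a share near the background. They were IGFBP3 and IGFBP5, which encode binding proteins of insulin-like growth factors, and TIMP1, an inhibitor of metalloproteinases, and they were higher in KO21. IGFBP3 measured 2825 and 3090 in KO17, 13859 and 12478 in KO21 and 665 to 2284 in WT, and TIMP1 measured 7656 and 8178 in KO17, 19096 and 16918 in KO21 and 4041 to 4757 in WT. KO17 and KO21 were both above all WT libraries for these 2 genes, KO21 by more. CDKN2A, the cell cycle inhibitor locus, was also higher in KO21, by 0.71 on the log2 scale (KO17 minus KO21 -0.71, adjusted p 1.65e-06), at 4166 and 4265 in KO17, 6978 and 6849 in KO21 and 1855 to 2134 in WT. CDKN1A did not pass the test (0.26, adjusted p 0.0608).

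**Figure D5:**
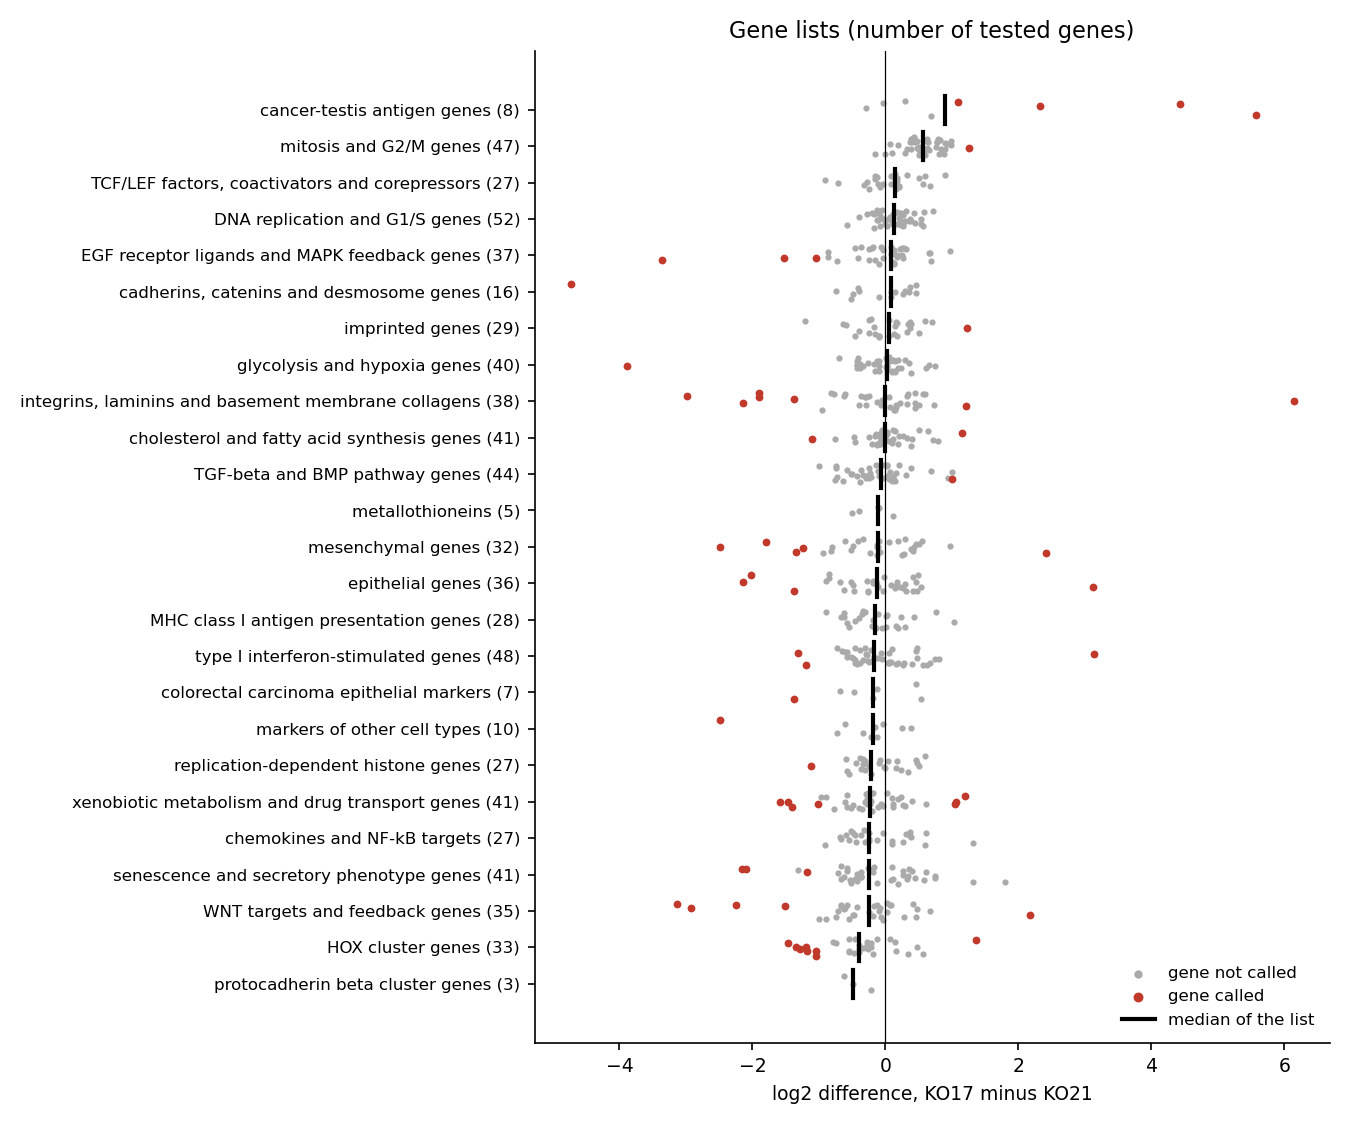
Log2 difference, KO17 minus KO21 (horizontal axis), of each tested gene in 25 gene lists (vertical axis, with the number of tested genes), called genes in red and list medians as black bars. The 47 mitosis and G2/M genes form a tight group around 0.57, while 7 of the 8 called HOX genes lie to the left of 0.

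WNT targets and feedback genes were lower in both KO clones than in WT, with medians of -2.35 for KO17 and -2.03 for KO21 relative to the shared WT libraries. Between the KO clones the median was -0.24 over 35 genes, with 4 called higher in KO21 (SOX4, NKD2, APCDD1 and SP5) and 1 higher in KO17 (SFRP5), 14.3% against 5.00% of all tested genes. APCDD1, a WNT inhibitor gene, measured 419 and 458 in KO17, 2108 and 2038 in KO21 and 36104 to 44293 in WT, and NKD2, another feedback inhibitor gene, measured 6.58 and 6.42 in KO17, 49.5 and 63.4 in KO21 and 196 to 243 in WT. NKD2 reached the level filter through KO21 alone, which fixed its direction. At APCDD1 and NKD2 the KO21 level lay between KO17 and WT. SFRP5, a secreted WNT antagonist gene, measured 114 and 109 in KO17, 36.4 and 15.4 in KO21 and 163 to 304 in WT, the reverse order. Of 27 TCF/LEF factors, coactivators and corepressors none was called, where 5.00% of all tested genes were, and the median was 0.15. Of 16 cadherin, catenin and desmosome genes DSG2 alone was called, 6.25% against 5.00% of all tested genes, a share near the background. JUP, which encodes plakoglobin, the desmosomal relative of β-CATENIN, measured 2352 and 2271 in KO17 and 4015 and 3712 in KO21, against 1179 to 1425 in WT (KO17 minus KO21 -0.74, adjusted p 1.52e-05).

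Matrix and adhesion genes were called in both directions. Of 38 integrin, laminin and basement membrane collagen genes 5 were higher in KO21 (LAMB3, ITGB8, ITGA10, ITGA11 and ITGB2) and 2 higher in KO17 (COL4A5 and COL7A1), 18.4% of the list against 5.00% of all tested genes, and the median was 0. ITGB8, an integrin chain that activates latent TGF-beta, measured 404 and 410.1 in KO17, 1741 and 1846 in KO21 and 26.3 to 65.6 in WT. COL7A1, the collagen of anchoring fibrils, measured 3188 and 2815 in KO17, 1063 and 1554 in KO21 and 146 to 252 in WT, and its call was lost without library A of KO21 (0.95). Both KO clones exceeded WT at these 2 genes, KO21 by more at the first and KO17 by more at the second. COL4A5 reached the level filter through KO17 alone, which fixed its direction. Of 32 mesenchymal genes COL6A2, COL6A3, CCN2 and LUM were higher in KO21 and MMP2 higher in KO17, 15.6% against 5.00% of all tested genes. MMP2, a gelatinase gene, measured 1056 and 989 in KO17, 233 and 155 in KO21 and 55.8 to 280 in WT, and COL6A3, a collagen VI chain, measured 1077 and 959 in KO17, 3619 and 3454 in KO21 and 84.2 to 256 in WT. LUM, at 5.64 and 11 in KO17 and 50.4 and 47 in KO21 with 0 in all WT libraries, is also a fibroblast marker. It was the only called marker among 10 tested markers of other cell types, 10% against 5.00% of all tested genes. Of the fibroblast markers on that list COL3A1 and DCN had at most 1 read in each KO library, as had COL1A2, whereas COL1A1 (139 and 115 in KO17, 142 and 132 in KO21) and PDGFRB (118 and 109 in KO17, 92.4 and 80.6 in KO21) were present in all 4, and their part in the LUM difference was not tested.

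Of 36 epithelial genes TJP3, KRT23 and CDX2 were higher in KO21 and MAL2 higher in KO17, 11.1% against 5.00% of all tested genes. KRT23, a type I keratin gene, measured 48 and 51.4 in KO17 and 188 and 224 in KO21, both far below 5980 to 8013 in WT. TJP3, a tight junction scaffold gene, measured 46.1 and 42.2 in KO17, 216 and 181 in KO21 and 50.5 to 84.9 in WT. MAL2, which encodes a transport protein of polarised cells, measured 32.9 and 36.7 in KO17 and 1.87 and 4.8 in KO21, inside and below a wide WT range of 17.2 to 57.7. MAL2 reached the level filter through KO17 alone, which fixed its direction. The cancer-testis list, of genes normally limited to the germ line, had 8 of 66 members tested. SPANXB1, SPANXD, PIWIL1 and TEX15 were called higher in KO17, but the first 3 reached the level filter through KO17 alone, which fixed their direction, so the count is no result about the list. SPANXB1 measured 68.7 and 73.4 in KO17, 2.8 and 1.92 in KO21 and 50.9 to 57.6 in WT, and PIWIL1 31 and 23.9 in KO17, 3.74 and 5.76 in KO21 and 23 to 30.9 in WT. For these 2 genes KO21 alone stood apart. SPANXD, at 45.2 and 47.7 in KO17 and 0 in both KO21 libraries, and SPANXB1 are near-identical copies of 1 family on X, and how the reads were shared between copies is uncertain. TEX15 was higher in KO17 by 1.09.

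Signalling and metabolic lists held called genes as well. Of 37 EGF receptor ligand and MAPK feedback genes ETV1, SPRY1 and FOS were higher in KO21 and none higher in KO17, 8.11% against 5.00% of all tested genes, and the median was 0.08. SPRY1, a feedback inhibitor of receptor kinase signalling, measured 251 and 258 in KO17, 745 and 725 in KO21 and 22.2 to 68.5 in WT. FOS, an immediate early gene, measured 189 and 162 in KO17 and 371 and 359 in KO21, against 1816 to 2321 in WT, a difference of -1.05 that was -0.94 without library B of KO17. Of 44 TGF-beta and BMP genes only INHBB, an activin chain, was called, 2.27% against 5.00% of all tested genes. At an adjusted p under 0.05 in limma, 4 of the 44 were higher in KO17 and 12 higher in KO21, where 13.0% and 15.5% of all tested genes were. BMP4, lower in KO17 and not called, became called under 3 alternatives of the processing. INHBB measured 4881 and 4524 in KO17, 2390 and 2297 in KO21 and 83.2 to 133 in WT. Its difference of 1.00 fell below the threshold without library A of KO17 or B of KO21 (0.95 and 0.97). Of 41 xenobiotic metabolism and drug transport genes 4 were higher in KO21 (ALDH3A1, GSTP1, CYP24A1 and NAT2) and 3 higher in KO17 (MGST1, ABCC4 and ABCG2), 17.1% against 5.00% of all tested genes. ALDH3A1, an aldehyde dehydrogenase gene, measured 1579 and 2005 in KO17, 4614 and 6174 in KO21 and 230 to 429 in WT. GSTP1, a glutathione transferase gene, had a difference of -1.01 that was -0.99 under 5 alternatives of scaling, test or depth and -0.95 without library A of KO21. The calls of MGST1, ABCG2, OAS2 and H3C10 were also lost when 1 KO library was left out.

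Among 48 type I interferon-stimulated genes OAS2 and DHX58 were higher in KO21 and XAF1 higher in KO17, 6.25% against 5.00% of all tested genes, a share near the background, and the median was -0.17. No gene was called among 28 MHC class I antigen presentation genes (median -0.16), 27 chemokine and NF-kB target genes (-0.24), 5 metallothioneins (-0.11) or 3 protocadherin beta genes (-0.48), where 5.00% of all tested genes were. Of 41 cholesterol and fatty acid synthesis genes 1 was called in each direction, ELOVL7 being higher in KO17, 4.88% against 5.00% of all tested genes. The remaining lists held 1 called gene each. They were CA9 higher in KO21 among 40 glycolysis and hypoxia genes (2.5%) and NNAT higher in KO17 among 29 imprinted genes (3.45%). H3C10 was higher in KO21 among 27 histone genes (3.7%), and CDX2 higher in KO21 among 7 tested colorectal markers (14.3%). Over all tested genes 5.00% were called. Most histone mRNAs lack a poly(A) tail, so poly(A)-selected libraries measure them poorly.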

How the data were processed

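The 8 SW480 libraries (poly(A) RNA, TruSeq RNA v2, which does not keep strand, paired-end) were analysed. The deposited values are a signal: per the labels, the authors aligned reads with STAR 2.7.5b to GRCh37, counted them per gene with featureCounts 2.0.1 and used DESeq2. The deposited values were found to be those counts divided by 1 size factor per library, computed over 24 libraries. Whole reads were recovered from the values (100% within 0.001 of a whole number). The deposited tables of the authors' own comparisons, with their fold changes and p-values, were not used.

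Tested genes reached a value of 10 in 2 or more of the 4 KO libraries, and were fitted with limma 3.58.1 (R 4.3.3; trend, robust) on log2(value + 1), 1 mean per clone over 8 libraries, with Benjamini-Hochberg adjustment. Fold changes are on that scale, which understates those of low genes. A gene was called at an adjusted p under 0.05 and an absolute log2 difference over 1. Per-library medians of chromosomes and of 10 Mb bins with at least 10 genes were also fitted with limma, with thresholds of 0.1 and 0.2. The chromosome fit used neither trend nor robust variances, and the trend of the bin fit was on the number of genes. A chromosome's best split had the least summed absolute deviation from the medians of its sides. This split, the runs of neighbouring genes and the promoter counts were chosen after the values were seen. Of 58051 gene identifiers 95.78% had a GRCh37 position. Named genes were CTNNB1, genes the study names, up to 4 per list and direction, and the 3 highest and 3 most different of each called region. The 12 most different called genes in each direction were also named, among those with a mean of at least 100 in the higher clone and no overlap between the KO clones. Other called list members, genes of neighbouring runs or at the splits, marker genes, CDKN1A, CDKN2A, FOXM1, the chromosome 20 mitosis genes, JUP and HOXA13 were named after their values were seen. Some genes the rule covers are not reported here. Members and the 25 lists were chosen with earlier results of these data known. Alternatives used edgeR 4.0.16, DESeq2 1.42.0, other scalings, pseudocounts, filters, a replicate block and libraries left out, and the fits were tested on simulated data. Rounds A and B of a clone differed by more than sampling noise (mean chi-square per gene 4.62 to 8.02). Intervals cover counting error only.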

Additional observations from a re-analysis of the deposited data

How the results depend on the processing

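Under edgeR quasi-likelihood, DESeq2, other scalings, pseudocounts, thinning, the 4 KO libraries alone or a filter on 4 of 8 libraries, between 688 and 888 genes were called, within 1.5 times of 819, edgeR with TMM shared 784 of them, and a filter of 1 read gave 1042. With at least 10 in every KO library 533 genes were called and 201 were higher in KO17, since genes absent from 1 clone were no longer tested. Leaving out 1 KO library gave 223 to 382 genes higher in KO17. Chromosomes 13 and 20 alone were called in each of the alternatives for chromosomes, and all chromosome 13 bins in each of those for bins. With bins of 5 Mb 34 of 401 were called and with bins of 20 Mb 9 of 156, of which 15 and 1 lay outside chromosomes 13 and 20, and the cause was not tested. Of 131 named genes, 15 lost the call when 1 KO library was left out, and no named gene that was called changed direction under any alternative. The rounds did not pair the libraries (correlation of the differences between rounds 0.00877 between KO17 and KO21). With the round as a replicate block 833 genes were called, 814 of them shared. Depth limits genes with few reads: 72 of the called genes had at most 3 reads in both libraries of the lower clone.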

Other observations

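Other runs of neighbouring genes called higher in KO21 held the WNT ligand genes WNT6 and WNT10A, which lie next to CYP27A1 on chromosome 2. WNT6 measured 53.6 and 35.8 normalised counts in KO17, 354 and 255 in KO21 and 1715 to 2553 in WT, so that KO21 lay between KO17 and WT. WNT10A measured 110.1 and 60.6 in KO17, 202 and 158 in KO21 and 12.9 to 42.1 in WT, so that both KO clones were above WT. A second run on chromosome 2 held KIF1A, a kinesin motor gene, at 10.4 and 8.26 in KO17 and 36.4 and 47 in KO21 against 929 to 1394 in WT, and SNED1, at 142 and 168 in KO17 and 443 and 534 in KO21 against 12.6 to 28.4 in WT. Within 1 run, then, neighbours took opposite positions relative to WT. Their same order between the KO clones was fixed by the definition of a run.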
